A study of Mus musculus with 4 samples.

Results

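The promoters of the ribosomal protein genes were followed in an ATAC-Seq comparison of immortalized mouse embryonic fibroblasts (imMEFs) with and without the histone acetyltransferase HAT1. ATAC-Seq uses the Tn5 transposase, which cuts open chromatin and inserts adapters, so that reads pile up where DNA is accessible. The deposited table lists 82325 accessible sites, each with 1 normalized value per library, and 15583 autosomal sites, called promoter sites here, had an edge no further than 1 kb from a transcription start site (TSS) of a protein-coding gene. Members were the autosomal sites within 1 kb of an annotated TSS of a protein-coding gene with an Rpl or Rps symbol (GENCODE, mm10), together with Rplp0, Rplp1, Rplp2 and Rpsa. The Rps6k kinases were left out. The rule matched 84 genes, of which 4 lie on the X chromosome and were set aside. Of the 80 autosomal genes 71 had a site, and 6 of them had a second site, which gave 77 member sites.

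The lines were made from e13.5 embryos on a C57bl6 background, grown in DMEM with 10% FBS and immortalized with a plasmid for the SV40 T antigen, which both genotypes therefore carry. Wild-type cells were Hat1+/+ (WT 1 and WT 2) and knockout cells were Hat1-/- throughout (KO 1 and KO 2). Each of the 4 libraries came from a line of its own, so 2 lines stood for each genotype. Early-passage primary cells were transfected, and the cultures were then split serially. The titles of WT 1 and KO 2 share a number, whose meaning the labels do not give. Genotype cannot be told apart from other differences between lines.

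The approximate number of reads in sites, recovered from the spacing of the low values, was 9420000 for WT 1, 11410000 for WT 2, 7830000 for KO 1 and 5650000 for KO 2. Both KO libraries were thus shallower than both WT libraries. All 10 fibroblast marker genes had a promoter site, with summed values of 3158 to 3804 per library over 13 sites. Of 11 marker genes of blood, endothelium, epithelium, liver and neurons, 5 had a site, with summed values of 164 to 200 over 5 sites. These were Cdh5, Pecam1, Cdh1, Epcam and Rbfox3, all with signal in every library, from 12 (Epcam, WT 2) to 87 (Pecam1, KO 2). Ptprc, Cd3e, Krt18, Alb and Neurod1 were among those with none. Single fibroblast markers went down to 35 (Thy1, WT 1), so single markers of the 2 lists overlapped in level.

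Ribosomal proteins assemble with ribosomal RNA into the small (Rps) and the large (Rpl) ribosomal subunit. Every growing cell needs them in near-equal amounts, and their genes are among the most strongly transcribed in fibroblasts. Most of these genes start transcription at a C within a run of pyrimidines, and the resulting terminal oligopyrimidine (TOP) tract at the 5′ end of the mRNA lets mTOR signalling control its translation. HAT1 acetylates newly made histone H4 before it is deposited behind the replication fork. The comparison asked whether accessibility at these constantly open promoters differed between cells with and without it.

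RefSeq promoter sequences (GRCm38.p6, 250 bases before to 50 after each start) were matched for 60 of the 80 genes, and 63 RefSeq starts, of 54 genes, lay inside a site of the table. Stretches from 65 bases before to 20 after a RefSeq start are printed for 8 genes. That start lay 216 bases from the GENCODE TSS of the site at Rps28, 96 at Rps7, 53 at Rpl27 and 32 at Rpl37. It lay 17 bases away or less at Rpl26, Rpl31, Rps27l and Rpl19. Runs of C and T were searched within 10 bases of the RefSeq start only, so a stretch with no marked run can still have one at the TSS. Rpl31, Rpl26 and Rpl27 were among the sites with the largest positive differences, Rpl37 was among the most accessible per kb, and Rps27l is a paralogue with one of the lowest differences. Rpl19, Rps7 and Rps28 were added after the sequences were read, as further examples of the motifs. Capitals mark the ETS core CCGGAAG or its reverse complement CTTCCGG. They also mark the core TCGCGAGA on either strand and the first run of C and T found near the start. At Rps27l a later run within 10 bases of the start is left in lower case.
Rpl31 (chr1:39367786-39367870, + strand): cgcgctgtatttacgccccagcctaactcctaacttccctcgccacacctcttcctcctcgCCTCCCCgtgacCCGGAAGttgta
Rpl26 (chr11:68901501-68901585, + strand): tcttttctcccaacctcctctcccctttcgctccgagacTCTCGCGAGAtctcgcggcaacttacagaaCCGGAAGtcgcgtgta
Rpl27 (chr11:101442180-101442264, + strand): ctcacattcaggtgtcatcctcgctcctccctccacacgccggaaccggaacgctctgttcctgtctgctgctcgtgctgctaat
Rpl37 (chr15:5116548-5116632, + strand): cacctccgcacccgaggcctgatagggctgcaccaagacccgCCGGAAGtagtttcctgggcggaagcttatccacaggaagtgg
Rps27l (chr9:66946021-66946105, + strand): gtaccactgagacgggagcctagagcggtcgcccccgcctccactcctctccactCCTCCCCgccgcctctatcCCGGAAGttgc
Rpl19 (chr11:98026645-98026729, + strand): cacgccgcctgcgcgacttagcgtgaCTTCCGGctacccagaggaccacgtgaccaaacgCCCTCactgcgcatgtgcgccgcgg
Rps7 (chr12:28635934-28636018, - strand): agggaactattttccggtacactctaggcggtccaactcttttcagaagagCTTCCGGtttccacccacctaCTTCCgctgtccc
Rps28 (chr17:33824543-33824627, - strand): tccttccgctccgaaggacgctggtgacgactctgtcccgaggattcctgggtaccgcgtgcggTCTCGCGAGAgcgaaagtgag

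The ETS core, the central letters bound by ETS factors such as GABPA, was found in 22 of the 63 ribosomal protein promoters (34.9%), against 19.5% of 10193 other promoters whose start lay in a site and 12.1% of all 19174 promoters searched. The YY1 core AAGATGG was found in 15.9%, against 7.1% and 6.3%. The 8-letter core TCGCGAGA was present in 12 promoters (19.0%), against 2.2% and 1.4%, and was added to the search after the sequences had been read. A C followed by at least 4 C or T on the sense strand occurred in 32 promoters (50.8%), against 31.4% and 31.3%. The C had to lie from 10 bases before to 10 after the RefSeq start. So short a tract was thus common at promoters of every kind.

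Of the 4 other elements only the NRF1 motif was more frequent than at the other promoters in sites by over 1 percentage point. The GC box GGGCGG stood in 60.3% of the ribosomal protein promoters, below the 69.3% of the other promoters in sites. The TATA box TATAAA was found in 6.3% against 5.9%, and the E box CACGTG, the letters bound by MYC, in 11.1% against 10.5%. The NRF1 motif GCGCATG occurred in 12.7% against 7.3%. All motifs except the tract were searched on both strands of the 300 bases, and a promoter counted once for each motif. TCGCGAGA and its reverse complement overlap where they occur together, as TCTCGCGAGA at Rpl26 and Rps28. These are letter matches and were not tested for binding.

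**Figure D1:**
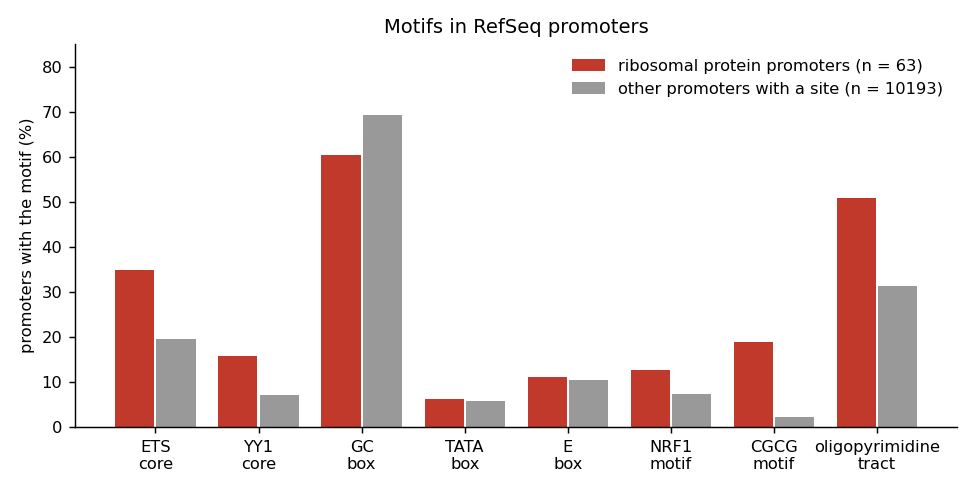
Share of RefSeq promoters that hold each motif (y axis, percent), for 63 ribosomal protein promoters and 10193 other promoters whose start lies in a site of the table. The red bar is above the grey one for the ETS core (34.9% against 19.5%), the YY1 core, the CGCG motif (TCGCGAGA, 19.0% against 2.2%) and the oligopyrimidine tract, and below it for the GC box.

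Of the ribosomal protein genes 88.8% had a promoter site, against 62.8% of 20780 autosomal protein-coding genes, 94.9% of 78 mitochondrial ribosomal protein genes and all 33 genes of a ribosome biogenesis list. The 9 genes without a site included Rpl10l, Rpl13a, Rpl15, Rpl39l, Rpl3l, Rps21 and Rps29, and the nearest listed site was 3.1 kb (Rpl3l) to 297.1 kb (Rpl10l) away. Rpl3l, Rpl10l and Rpl39l are paralogues known for muscle or testis expression. The other 6 encode core subunits that every cell makes, so that a missing site says only that the table lists none there.

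The sites were centred on the start. In 69 of the 71 genes the nearest site contained the TSS, the median centre lay at -6.5 bp, and the median edges were 407 bp before and 383 bp after it. Member sites had a median length of 803 bp (295 to 2033), against 749 bp for promoter sites as a whole. They were of ordinary GC content (median 60.2%, at percentile 45.9 of promoter sites) with 7.23 CpG per 100 bp against 6.57 at the other promoter sites. In 17 of the 77 sites the TSS of another protein-coding gene was also within 1 kb, such as Rdh10 at Rpl7, Clhc1 at Rps27a, Vps52 at Rps18 and Med22 at Rpl7a, and the signal there belongs to both genes.

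These promoters were strongly accessible in all 4 libraries. The median of the 77 mean values was 278 normalized reads, with a range from 53.3 to 732, and stood at percentile 69.1 of promoter sites. Per kb of site the median was 342, at percentile 75.3, with values from 161 to 747. No member was at 0 in any library, and 76 of 77 were above the median of all sites in every library. Of the 77 means, 56 lay between 150 and 400, and the share of other promoter sites in that band was not worked out.

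**Figure D2:**
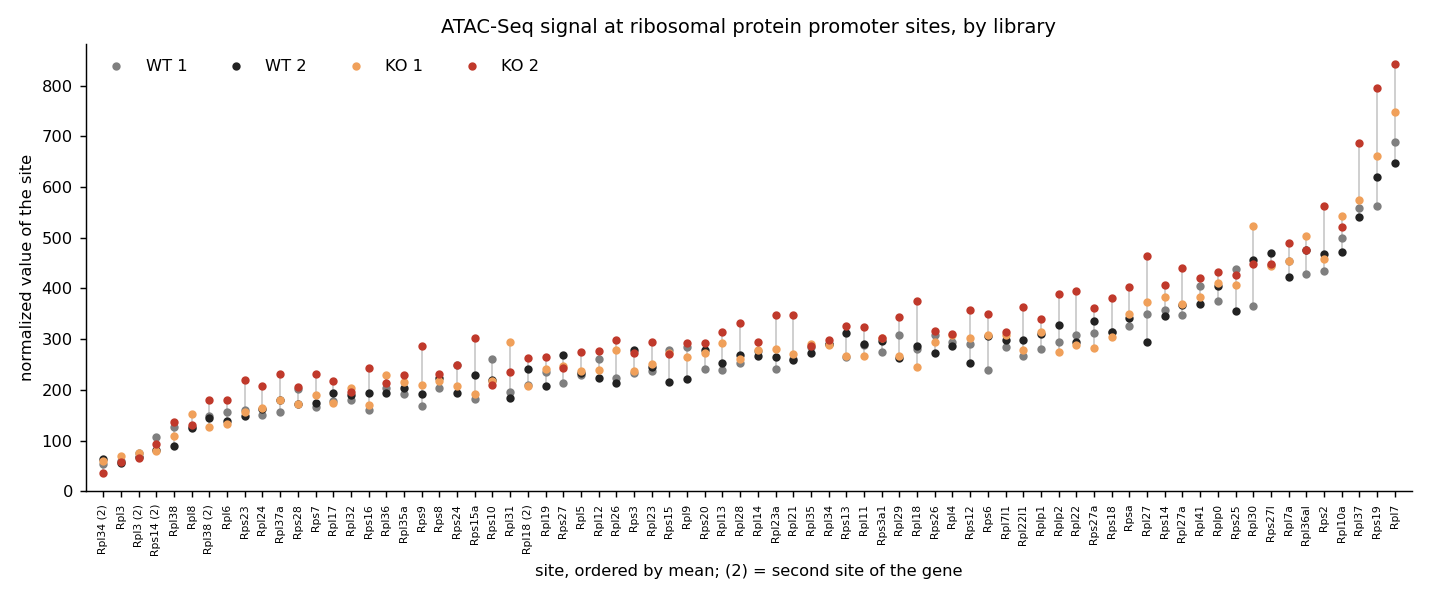
Normalized value (y axis) of 74 of the 77 ribosomal protein promoter sites in the 4 libraries, ordered by mean, with a grey line from the lowest to the highest library. Values run from 36 at the second Rpl34 site to 842 at Rpl7, and the KO 2 point is the highest of the 4, or tied for it, at 56 of them.

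Among the 5 most accessible sites per kb were those of the large subunit genes Rpl37, at 676 per kb, Rpl41, at 671, and Rpl27, at 573. Rps19, the small subunit protein most often mutated in Diamond-Blackfan anaemia, followed at 566. The KO and WT values of Rpl41 overlapped, with 405 and 369 in WT and 384 and 421 in KO. At Rpl37, Rpl27 and Rps19 both KO values lay above both WT values.

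Of the 5 lowest per kb, 3 were sites beside the start rather than over it. The nearest Rpl3 site, which does not contain the TSS, had 161 per kb and a further one 193, and the second Rpl34 site had 163. Rps23, a protein of the decoding centre, had 186 per kb, and Rpl6 had 196. At Rpl6 the libraries overlapped, with 156 and 138 in WT and 133 and 180 in KO. At Rps23 KO 2 alone stood out, with 220 against 160 and 149 in WT and 157 in KO 1.

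Loss of HAT1 was accompanied by no called change at any ribosomal protein promoter. The limma fit across all 82325 sites gave 0 of 77 members at an adjusted p under 0.05 (0.0% of all sites) and 0 at an unadjusted p under 0.01 with a log2 difference of 1 or more in either direction (0.373% of all sites). The adjusted p was 1 at each member. At an unadjusted p under 0.05 there were 2 members, Rpl7 and Rps19, or 2.60%, against 3.13% of all sites. The median standard error of a member's log2 fold change was 0.18, and 52 of 77 differences lay within 1 standard error of 0.

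With the values as deposited, most of the small differences were above 0. The median log2 fold change of the 77 sites, KO against WT, was 0.14, or 1.11-fold, with quartiles of 0.07 and 0.23 and a range from -0.32 to 0.48. It was above 0 at 70 sites (90.9%), against 50.7% of all sites and 53.1% of the 15506 other promoter sites, whose median was 0.02. Among the 9614 promoter sites within the range of level that held the members from percentile 5 to 95, the median was 0.04 and 60.4% were above 0. Both KO values exceeded both WT values at 35 sites (45.5%, against 14.6% of all sites and 19.4% of the other promoter sites), and the reverse held at 1, Rps10 (1.30%, against 14.3%). At the remaining 41 sites the genotypes overlapped. With 2 lines per genotype an exact permutation test cannot give a two-sided p under 0.33. The size of the difference and the counts depended on the scaling between libraries. Under equal totals per library the median was 0.08 with 59 sites above 0, and both KO values were the higher at 13 sites (16.9%, against 10.9% of all sites). Under quantile normalization the median was 0.04 with 44 sites above 0, and both KO values were the higher at 9 sites (11.7%, below the 13.3% of all sites). The other promoter sites then had medians of -0.05 and -0.07.

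The 2 KO lines did not contribute alike. Against the WT mean, KO 2 had a median difference of 0.22 on the log2 scale (1.17-fold) and was higher at 71 sites, whereas KO 1 had 0.05 (1.04-fold) and was higher at 52. KO 2 was the highest library, ties included, at 58 of 77 members (75.3%), compared with 33.2% of the other promoter sites. Without KO 2 the median was 0.05, against 0.02 at the other promoter sites, and without KO 1 it was 0.22. The medians of the 77 values by library were 260 and 264 in WT and 270 and 299 in KO. KO 2 was also the shallowest library, with a median of 199 reads per member site and a counting error of 0.10 on the log2 scale, so its higher values rest on fewer reads.

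**Figure D3:**
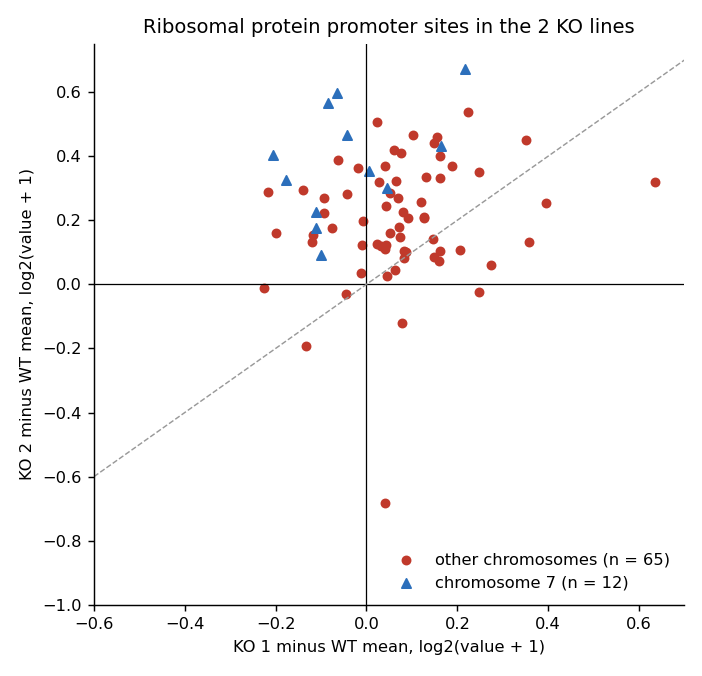
Difference from the WT mean on the log2(value + 1) scale in KO 1 (x axis) and KO 2 (y axis) at each of the 77 member sites, with the 12 sites on chromosome 7 as blue triangles and the line of equality dashed. Most points lie above the line and above 0 on the KO 2 axis (71 of 77), while on the KO 1 axis 52 are above 0.

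Level moved with the fold change across promoters in general. The other promoter sites were divided into 4 bins of near-equal size by value per kb, and their median log2 fold change went from -0.25 in the lowest bin through -0.05 and 0.04 to 0.14 in the highest, where 85.5% of sites were above 0. No member fell in the lowest bin, and 42 of 77 fell in the highest. In that bin the members' median was 0.15, against 0.14 for the other promoter sites. In bins 2 and 3 the members' medians were 0.14 (13 sites) and 0.09 (22 sites). By mean value without division by length, the members' medians were 0.20, 0.13 and 0.16 in the upper 3 bins, against -0.05, 0.03 and 0.13. The part that level has in the difference was not tested.

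**Figure D4:**
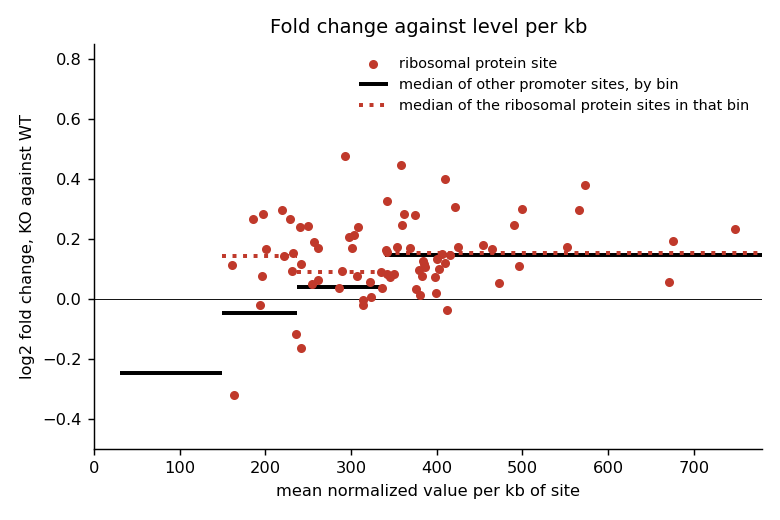
Log2 fold change, KO against WT, of each member site (red points) against its mean normalized value per kb (x axis), with the median of the other promoter sites in each of 4 bins of level as black lines and of the members in that bin as dotted red lines. The black line climbs from -0.25 to 0.14, and in the highest bin the red line, at 0.15, lies next to it.

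Chromosome 7 carried 12 members, more than any other, among them Rps9, Rps19, Rplp2, Rpl18 and Rps16. Their median deviation from the mean of the 4 libraries was 0.29 in KO 2 and -0.13 in KO 1, while the 1151 other promoter sites of that chromosome were at 0.16 and -0.07. All 12 were higher in KO 2 than the WT mean, and 4 of 12 in KO 1. Of all promoter sites of chromosome 7, 70.9% were higher in KO 2 and 46.9% in KO 1. The 65 members on other chromosomes had a median log2 fold change of 0.13, with 59 above 0. Of these 65, 32 were higher in both KO lines (49.2%, against 14.6% of all sites). Members of both chromosomes are given here as examples picked after their values were seen. Rps15a had 181 and 229 in WT, 192 in KO 1 and 302 in KO 2, and 1 of the 2 Rpl18 sites had 281 and 287 in WT, 246 in KO 1 and 376 in KO 2. At both, KO 2 alone stood above WT. On chromosome 15 the order of the KO lines was mostly the opposite, with all 5 members above the WT mean in KO 1 and 3 in KO 2. Of all promoter sites of chromosome 15, 81.0% and 53.0% were above it. Rpl37 was an exception, with 575 in KO 1 and 687 in KO 2. Rpl30 had 365 and 457 in WT, 524 in KO 1 and 448 in KO 2, and Rpl8 had 127 and 124 in WT, 152 in KO 1 and 131 in KO 2. The 699 other promoter sites of chromosome 15 also had KO 1 as the higher KO line. The part that these chromosomes have in the difference was not tested.

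In the values by subunit, the lines are in the order WT 1, WT 2, KO 1 and KO 2, and the value before each standard error (SE) is the limma log2 fold change, KO against WT. Small subunit genes accounted for 27 sites, with a median of 0.12 and 23 sites above 0. At 8 of them both KO values were above both WT values (29.6%, against 14.6% of all sites). Rps9, which contacts the RNA at the mRNA entrance, had the largest difference among them (chr7:3703688-3704285), with values of 168 and 192 in WT and 209 and 287 in KO, a log2 fold change of 0.45 (SE 0.23). The genotypes did not overlap, but KO 2 lay much further from WT than KO 1. Rps19 (chr7:24883826-24884990) had 562 and 620 in WT and 661 and 796 in KO, 0.30 (SE 0.12). Rps7, a protein that can bind MDM2, had 167 and 174 in WT against 189 and 232 in KO, 0.30 (SE 0.21). At Rps28, whose site is shared with Ndufa7, the values were 202 and 173 in WT and 172 and 205 in KO, and the genotypes overlapped.

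Rps6 is the substrate of S6 kinase downstream of mTOR. Its site (chr4:86856911-86857713) had values of 240 and 306 in WT and 309 and 350 in KO, a log2 fold change of 0.28 (SE 0.18), and the gap between the WT lines was about as wide as that between the genotypes. Rpsa, a small subunit protein also known as the laminin receptor precursor, had 325 and 342 in WT and 350 and 402 in KO, 0.17 (SE 0.15). Rps10 was the only member lower in both KO lines, with 261 and 219 in WT and 218 and 209 in KO, -0.16 (SE 0.19), and KO 1 differed from WT 2 by 1. That site also covers the start of the readthrough gene RPS10-NUDT3. The alternative start of Rps14 beside Ndst1 had 107 and 82 in WT and 80 and 93 in KO, whereas the main Rps14 site had 357 and 346 in WT and 384 and 406 in KO.

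Large subunit genes gave 43 sites, with a median of 0.16 and 41 sites above 0. At 24 of them both KO values were above both WT values (55.8%, against 14.6% of all sites). Rpl31 (chr1:39367539-39368314), near the exit of the peptide tunnel, had the largest difference of all members, with 195 and 183 in WT and 294 and 236 in KO, 0.48 (SE 0.20). Here KO 1 was the higher line. Rpl26, also at the tunnel exit and a regulator of p53 translation, had 223 and 214 in WT and 279 and 299 in KO (chr11:68901209-68901828), 0.40 (SE 0.17), with both KO lines clear of both WT lines by more than either pair was apart. Rpl27 (chr11:101442019-101442665) had 349 and 294 in WT and 374 and 465 in KO, 0.38 (SE 0.17).

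Rpl7 had the highest mean of all members, over a site of 2033 bp shared with Rdh10 (chr1:16104277-16106309). Its values were 689 and 648 in WT and 748 and 842 in KO, 0.25 (SE 0.10). Rpl37 had 558 and 541 in WT and 575 and 687 in KO, 0.19 (SE 0.12). Rpl19 had 236 and 208 in WT and 241 and 265 in KO, 0.19 (SE 0.18), so that KO 1 stood above WT 1 by 5 only.

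Rpl5 and Rpl11 form with 5S rRNA the particle that inhibits MDM2 when ribosome assembly fails. Rpl5 had 229 and 233 in WT and 238 and 274 in KO, 0.14 (SE 0.18). Rpl11 had 289 and 291 in WT and 267 and 323 in KO, 0.02 (SE 0.17), and the KO lines lay on either side of WT. The lowest fold change of all was at the second Rpl34 site (chr3:130729394-130729720), with 54 and 63 in WT and 60 and 36 in KO, -0.32 (SE 0.38), and the main Rpl34 site had 291 and 290 in WT and 288 and 298 in KO. The second Rpl3 site was at 76 and 68 in WT and 76 and 66 in KO.

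The P stalk, formed by Rplp0 and dimers of Rplp1 and Rplp2, recruits the elongation factors. Rplp0 had 375 and 405 in WT and 410 and 432 in KO, 0.11 (SE 0.13). Rplp1 had 280 and 310 in WT and 314 and 340 in KO, 0.15 (SE 0.15). Rplp2, on chromosome 7, had 294 and 327 in WT and 274 and 389 in KO, 0.07 (SE 0.21), with KO 1 the lowest library and KO 2 the highest.

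Of the paralogous genes, which can replace a core subunit in some cells, 4 had a site, with a median of 0.10. Rps27l, a p53 target, had nearly the same level throughout, with 446 and 470 in WT and 444 and 448 in KO, -0.04 (SE 0.11). Rpl36al had 429 and 475 in WT and 504 and 475 in KO, 0.12 (SE 0.12), and Rpl7l1 had 285 and 299 in WT and 309 and 314 in KO, 0.09 (SE 0.15). Rpl22l1, which is repressed by its paralogue Rpl22, had 267 and 299 in WT and 279 and 364 in KO, 0.17 (SE 0.19). Both genotypes overlapped at Rps27l and Rpl22l1, and KO 2 was level with WT 2 at Rpl36al.

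The difference was also set out by features of sequence and gene structure, without a test. Genes with an ETS core in a promoter had a median log2 fold change of 0.10 (22 genes), against 0.15 without (32 genes). For the oligopyrimidine tract the medians were 0.15 (30 genes) and 0.14 (24 genes), and for TCGCGAGA 0.13 (11 genes) and 0.14 (43 genes). Per kb, genes with the ETS core had a median value of 382 against 341. Many ribosomal protein genes carry small nucleolar RNAs in their introns, which guide the modification of ribosomal RNA. On the annotation 26 of the 71 genes with a site did (36.6%), against 1.4% of the other protein-coding genes with a site, and Rpl4 held 5. Host genes had a median log2 fold change of 0.13 and the other 45 genes 0.15. Sites shared with another gene's TSS had 0.10 (17 sites) and unshared ones 0.17 (60 sites). Both KO values exceeded both WT values at 3 shared sites (17.6%) and 32 unshared ones (53.3%), against 14.6% of all sites.

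Other genes of protein synthesis also had medians above 0. The mitochondrial ribosomal protein genes, which build the separate ribosome of the organelle, had 83 sites with a median log2 fold change of 0.11. Of these sites 57 were above 0 (68.7%, against 90.9% of the members). Both KO values were above both WT values at 21 sites (25.3%, against 14.6% of all sites) and below them at 10 (12.05%, against 14.3%). At the members these shares were 45.5% and 1.30%. Sites of other TOP mRNA genes, such as translation elongation factors, had a median of 0.21 (17 sites, 15 above 0), and those of the ribosome biogenesis list, from RNA polymerase I subunits to assembly factors, 0.10 (42 sites, 31 above 0). No site of these lists was a member. In both ribosomal lists KO 2 was the higher KO line, with medians against the WT mean of 0.22 in KO 2 and 0.05 in KO 1 at the members and 0.19 and 0.03 at the mitochondrial list. None of the lists was tested against another.

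**Figure D5:**
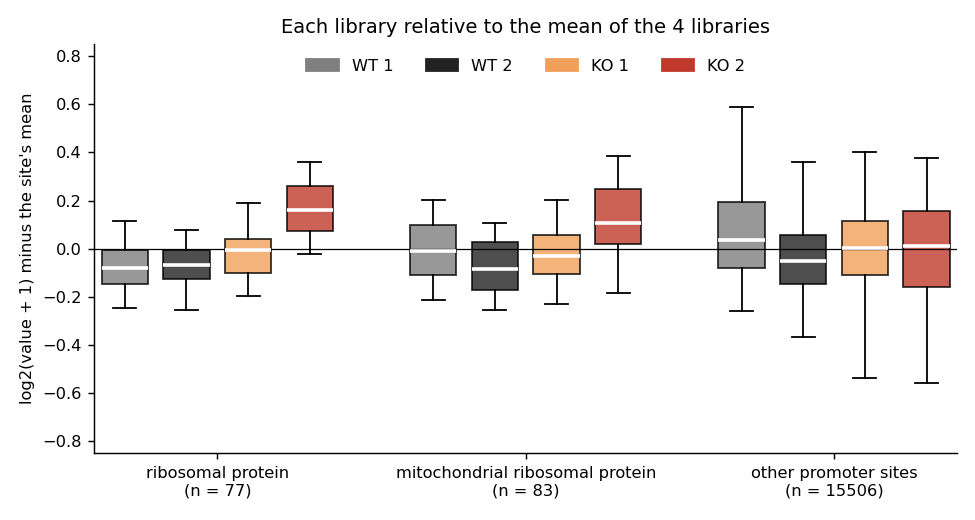
Deviation of each library from the mean of the 4 libraries on the log2(value + 1) scale (y axis) for the 77 members, 83 mitochondrial ribosomal protein sites and 15506 other promoter sites. Boxes span the quartiles with the median in white and whiskers the 5th to 95th percentile, and the KO 2 box of the members has its median at 0.16 where the WT boxes have theirs at -0.08 and -0.07.

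The median absolute log2 difference between the WT lines was 0.11 at members and 0.18 at other promoter sites, and between the KO lines it was 0.21 and 0.23. At the 9614 promoter sites in the range of level of the members these were 0.14 for WT and 0.19 for KO, so that against promoters of like level the WT lines were closer at the members and the KO lines further apart. The signed difference, KO 2 minus KO 1, had a median of 0.20 at the members and 0.02 at the other promoter sites. At members the median gap between the KO lines was thus wider than the median log2 fold change of 0.14 between the genotypes. These are unlike measures, since the gap compares single libraries and the fold change compares means of 2 libraries. Counting error alone gave a median of 0.09 on a log2 fold change, and 54 members had a difference above their own counting error, which leaves the spread between lines out. The same share was not worked out for other sites.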

How the data were processed

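ATAC-Seq libraries from 2 WT and 2 KO imMEF lines were analysed. Per the methods and the submitters' processing notes in the labels, paired-end reads were aligned to mm10 with BWA 0.7.12, peaks were called with MACS2 2.1.0 and genotypes were compared with DESeq2. The deposited values are a score: the authors scaled the read counts of merged sites, each library by its own factor, and rounded the results. Read filtering, multiply mapped reads and the Tn5 offset were not given in the sources used here. The same table holds the authors' own log2 fold changes, p-values and adjusted p-values, which were not used.

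log2(value + 1) of all 82325 sites was fitted with limma 3.58.1 (R 4.3.3, intensity trend, KO against WT, Benjamini-Hochberg adjustment), after a test on simulated data. Fold changes are on that scale, which understates low sites. TSSs were those of GENCODE M21 protein-coding transcripts. Summaries used Python 3.11.15, numpy 2.4.6 and pandas 2.3.3. Replicate numbers follow accession order, and p-values measure the spread between these lines.

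Members and lists were chosen with earlier results of these data known. Named sites were the 5 largest and 5 smallest fold changes, the 5 highest and 5 lowest per kb, the P stalk, Rpsa, paralogues, Rps6, Rpl5 and Rpl11. Rpl7 and the sites beside printed sequences were named after their values were seen. Printed stretches hold at most 30 exonic bases. A few genes that these rules name are counted in the totals but not reported here.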

Additional observations from a re-analysis of the deposited data

How the results depend on the processing

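No adjusted p passed 0.05 under any alternative. At an unadjusted p under 0.05 the 2 members became 0 under equal totals, quantile normalization or a fit with no intensity trend, 1 with each library centred on promoter sites and 1 with chromosome 7 left out (chosen after seeing the data), and 0 to 4 on leaving out 1 library, where the lone line is assumed to vary like the others. The share of all sites at that p is not given for these alternatives. Whether any of the counts exceeds such a share was not tested. Sites with both KO values higher fell from 35 to 13 under equal totals (16.9%, all sites 10.9%) and 9 under quantile normalization (11.7%, all sites 13.3%), and those lower rose from 1 to 3 under each (3.9%, all sites 19.0% and 14.7%). The median log2 fold change stayed above 0 in every setting, from 0.04 (quantile, 44 sites above 0) to 0.22 (without KO 1). Equal totals moved the median of all sites to -0.06. Relative to the other promoter sites the members were higher by 0.13 under equal totals and 0.10 under quantile normalization. On leaving out 1 library they were higher by 0.07 without WT 1, 0.18 without WT 2, 0.20 without KO 1 and 0.03 without KO 2. A window of 3 kb (85 sites) gave 0.12. Of 108 values of the 27 named sites under other scalings or pseudocounts 8 changed sign, and of 108 on leaving out a library 13 did, at 8 sites. The cause was not tested. Counting error limits single sites, most of all in KO 2. No paired analysis was possible because the labels give replicates no number in common beyond the 1 that the titles of WT 1 and KO 2 share, and fewer than 2 pairs could be formed.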

Other observations

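The 4 X-linked ribosomal protein genes each had 1 promoter site, and none enters the comparisons. Rpl10, a core protein of the large subunit, had 438 and 460 in WT and 475 and 565 in KO. Rpl36a had 187 and 209 in WT and 186 and 227 in KO, and Rpl39 had 167 and 163 in WT and 162 and 186 in KO. Rps4x had 117 and 104 in WT and 93 and 113 in KO. KO 2 was the highest library at 3 of these 4 sites, and Rpl10 was the only one of them whose genotypes did not overlap.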
